A study of Mus musculus with 9 samples.

Results

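The angiopoietin and Tie genes examined here were 4 genes of a table of 56748 gene identifiers: Tek and Tie1, which encode receptors, and Angpt1 and Angpt2, which encode secreted ligands. They were chosen by symbol, and the 4 identifiers were all found and all passed the filter on low counts. The 9 RNA libraries came from lung endothelium of C57BL/6 mice at 6 weeks of age, with 3 libraries for each genotype, WT, DNMAML and Notch1f/f. Viable cells were taken by the absence of DAPI and CD45 signal and the presence of CD31 signal, per the labels' protocols. By common usage DNMAML stands for a dominant-negative form of Mastermind-like, which blocks transcription downstream of all Notch receptors, and Notch1f/f for a floxed, conditional Notch1 allele carried on both chromosomes. Which recombinase was used, what drove it and how many mice stand behind a library are not given in the labels. All p-values therefore refer to the spread between libraries, which may be technical.

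Tek, also called Tie2, is a receptor tyrosine kinase found mainly on endothelial cells. Angpt1, made largely by cells around the vessel, activates Tek and keeps the endothelium quiescent through AKT and the transcription factor FOXO1. Angpt2 is made by endothelial cells themselves, is stored in their Weibel-Palade bodies, and acts as a weak activator or as an antagonist of Tek depending on the setting. Tie1 binds no angiopoietin on its own and modulates Tek, and Ptprb, known as VE-PTP, is an endothelial phosphatase that removes phosphate from Tek.

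Total counts ran from 15522100 to 27842496 per library. The endothelial cadherin gene Cdh5 had between 5366 and 6656 CPM (counts per 1000000 of the TMM-scaled library size), and Pecam1, which encodes CD31, between 3408 and 4353 CPM. All 11 endothelial markers examined were detected and tested. Notch1, the gene of the Notch1f/f allele, was at 679 to 909 CPM in the WT and DNMAML libraries and at 70.8, 29.5 and 176 CPM in those labelled Notch1f/f. Markers of other cells were present in each library and varied widely, with 12 fibroblast markers summing to between 276 and 2687 CPM. The 12 cell cycle markers summed to 87.6 to 105 CPM in WT, 306 to 381 in DNMAML and 124 to 459 in Notch1f/f. Fewer cells of a type and less RNA per cell cannot be told apart in these libraries.

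The receptors were the most abundant members by a wide margin. Per kilobase of gene length in WT, Tek had a level of 334 ± 44.9 CPM and Tie1 246 ± 11.7 CPM (SD, n = 3). On the same scale in WT, Angpt2 had 15.3 ± 3.93 CPM and Angpt1 7.08 ± 3.80 CPM, and their values overlapped, since Angpt1 in WT replicate 1 was above Angpt2 in WT replicate 3. Tek ranked 92 and Tie1 106 among the 19486 genes tested by mean level per length over the 9 libraries, while Angpt2 ranked 3836 and Angpt1 7150. In DNMAML the per-length levels were 249 ± 38.5 CPM for Tek and 225 ± 24.3 CPM for Tie1, and in Notch1f/f 243 ± 60.0 CPM for Tek and 261 ± 29.9 CPM for Tie1. Only in WT was each Tek value above each Tie1 value. Within the same library Tek was above Tie1 in every DNMAML library too, and in Notch1f/f in replicate 1 but not in replicates 2 and 3. Angpt2 had 10.8 ± 4.57 CPM per kilobase in DNMAML and 10.7 ± 2.66 in Notch1f/f, and Angpt1 had 6.90 ± 6.10 and 2.20 ± 1.21. Libraries of 1 genotype differed most in Angpt1. Its SD within genotypes on the log2 scale was 1.12, larger than in 98.3% of 1948 genes of similar mean level. That SD was 0.51 for Angpt2, 0.28 for Tek and 0.14 for Tie1.

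**Figure D1:**
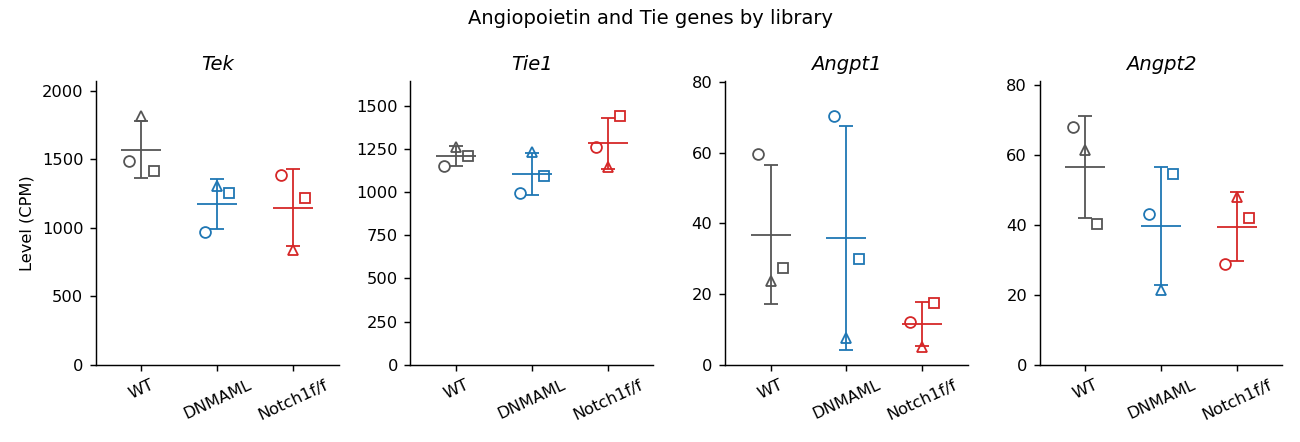
Level of each member in CPM (vertical axes, linear, each from 0) in WT, DNMAML and Notch1f/f libraries. Circles, triangles and squares are replicates 1, 2 and 3, the horizontal dash is the mean and the bars are the SD of 3 libraries. All 6 DNMAML and Notch1f/f libraries lay below the lowest WT library for Tek, while Tie1 overlapped between genotypes.

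Tek (ENSMUSG00000006386, chromosome 4, 94627526 to 94763213, plus strand, GRCm39) stood at 1484, 1813 and 1417 CPM in WT. In DNMAML its levels were 967, 1304 and 1253 CPM, and the Notch1f/f samples gave 1387, 834 and 1217 CPM. Each of the 6 libraries of the other genotypes was thus below each WT library, which was the case for 3.01% of all genes tested. For DNMAML alone the share of genes without overlap in that direction was 6.84%, and for Notch1f/f alone 9.33%. The log2 difference of Tek from WT was -0.42 in DNMAML (SE 0.20, 95% interval -0.85 to 0.01) and -0.46 in Notch1f/f (SE 0.20, 95% interval -0.89 to -0.02). Neither passed the threshold of an adjusted p below 0.05, with Benjamini-Hochberg adjusted p = 0.854 and 0.339 in edgeR's quasi-likelihood test over all genes. Both comparisons share the WT libraries. The edgeR fit behind these values was by genotype alone, and fits with the replicate number as a block are given with Ptprb below. In DNMAML against WT 0.00513% of genes passed and in Notch1f/f against WT 0.836%, so a gene that did not pass had the usual outcome in both. The unadjusted p of Tek was 0.0556 and 0.0403, and 5.97% and 13.4% of all genes had an unadjusted p below 0.05. DESeq2 gave no member an adjusted p below 0.05 in any comparison, while it called 1.09% of all genes in DNMAML against WT, 5.48% in Notch1f/f against WT and 0.883% in Notch1f/f against DNMAML. DNMAML and Notch1f/f differed in Tek by -0.04 on the log2 scale (SE 0.20, 95% interval -0.47 to 0.40, adjusted p = 0.999 in the edgeR test). Tek counts were high in each library, from 18839 to 34288. Among the Notch1f/f libraries replicate 2 had the least Notch1 and the least Tek, while replicate 3 had more Notch1 and less Tek than replicate 1. Set against Cdh5 in the same library, Tek CPM came to 24.2%, 27.2% and 21.4% of Cdh5 CPM in WT and, for DNMAML, 16.8%, 20.7% and 20.8%, while Notch1f/f samples gave 23.2%, 15.5% and 18.7%. On that scale the DNMAML libraries stayed below WT, and Notch1f/f replicate 1 fell among the WT libraries. Sums of markers of endothelial subtypes lay as follows. The 10 venous markers summed to 2908 to 3386 CPM in WT, 1790 to 2303 in DNMAML and 2091 to 2651 in Notch1f/f, and the 10 arterial markers to 3229 to 3681, 2567 to 3068 and 2308 to 3287 CPM. Both sums were below WT in all DNMAML libraries, and in Notch1f/f the venous sums were below WT while the arterial sums overlapped with it. Of 10 markers each, 7 venous and 9 arterial were lower in DNMAML, with 0 passing. In Notch1f/f 5 venous markers were lower and 5 higher than in WT, with a median log2 difference of 0.02 and 0 passing. Of the arterial markers 7 were lower there and 1 of these passed, beside 0.323% of all genes. DESeq2 called 2 venous markers in DNMAML, Slc6a2 and Vwf, both lower, beside 1.09% of all genes. In Notch1f/f it called 3 venous and 2 arterial ones (Efnb2 and Gja5), beside 5.48% of all genes. Of those venous markers Slc6a2 and Vwf were lower and Ackr1 was higher, at 1.66, 16.2 and 3.44 CPM beside 0 to 0.936 CPM in WT. A large part of the venous sum is Vwf, which alone had 1550 to 1883 CPM in WT. The 10 aerocyte (alveolar capillary) markers summed to 6308 to 6549 CPM in WT, 4986 to 7555 in DNMAML and 3670 to 5441 in Notch1f/f, where every library was below WT and 8 of 10 markers were lower, with a median log2 difference of -0.61 and 0 passing in edgeR, 6 with an unadjusted p below 0.05 and 2 called by DESeq2. Sums of the 10 general capillary markers, Ptprb among them, overlapped, at 14149 to 16447, 11668 to 15642 and 12718 to 15867 CPM. In Notch1f/f against WT 5 of these markers were lower and 5 higher, and 1 passed with a higher level, beside 0.513% of all genes. DESeq2 called 3 of them there, Aplnr, Lpl and Ptprb, beside 5.48% of all genes. The part of these subtypes in the Tek values was not tested.

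Tie1 (ENSMUSG00000033191, chromosome 4, 118328388 to 118347258, minus strand, GRCm39) had 1151, 1265 and 1213 CPM in WT and, for DNMAML, 994, 1232 and 1092 CPM, while Notch1f/f samples gave 1261, 1149 and 1440 CPM. The genotypes overlapped throughout. The log2 difference of Tie1 was -0.13 for DNMAML against WT (SE 0.14, 95% interval -0.43 to 0.18) and 0.09 for Notch1f/f against WT (SE 0.14, 95% interval -0.22 to 0.39). Notch1f/f against DNMAML gave 0.21 for Tie1 (SE 0.14, 95% interval -0.09 to 0.52). These did not pass, with adjusted p of 0.999, 0.881 and 0.949 in the edgeR test. Each of these intervals held 0 and ended within 0.52 of it on the log2 scale, which made Tie1 the most narrowly measured of the members. As a share of Cdh5 CPM in the same library, Tie1 came to 18.7%, 19.0% and 18.3% in WT, with 17.3%, 19.5% and 18.2% for DNMAML and 21.1%, 21.4% and 22.2% for Notch1f/f. On that scale, which was not tested, each Notch1f/f library was above each of the others. The share of all genes lying so on that scale was not computed. The separation depended on the reference gene, since with Pecam1 CPM in place of Cdh5 CPM Notch1f/f replicate 2 fell among the WT libraries.

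The ratio of the receptors per length showed their unequal course. Tek per Tie1 was 1.35, 1.50 and 1.22 in WT and, for DNMAML, 1.02, 1.10 and 1.20, while Notch1f/f samples gave 1.15, 0.758 and 0.882. Each WT library was above each other library, although the highest DNMAML and the lowest WT ratio lay close together. The ratio is given as a description and was not tested, and the share of other gene pairs lying so was not computed.

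The stretches of 250 bases before the RefSeq starts of the receptor genes are shown because these genes share a cell type and a chromosome and yet differed in how their levels lay between genotypes. Both come from RefSeq on GRCm38.p6, at chr4:94739039-94739288 on the plus strand for Tek and chr4:118489850-118490099 on the minus strand for Tie1. Capitals mark the matches to the motifs searched on both strands, which were TGGGAA for RBPJ, the DNA-binding partner of Notch, GTAAACA for forkhead factors, CAGGAAG for ETS factors and AGATAA for GATA factors.
Tek: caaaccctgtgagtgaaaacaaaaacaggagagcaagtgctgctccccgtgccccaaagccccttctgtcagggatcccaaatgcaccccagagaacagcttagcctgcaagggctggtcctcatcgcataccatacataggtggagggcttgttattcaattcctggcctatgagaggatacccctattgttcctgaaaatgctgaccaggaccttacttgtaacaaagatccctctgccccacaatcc
Tie1: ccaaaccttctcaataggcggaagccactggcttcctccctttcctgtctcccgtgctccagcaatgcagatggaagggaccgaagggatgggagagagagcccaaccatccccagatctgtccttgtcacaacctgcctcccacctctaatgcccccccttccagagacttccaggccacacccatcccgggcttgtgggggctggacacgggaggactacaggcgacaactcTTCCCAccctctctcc

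The Tie1 stretch held 1 match, the RBPJ letters on the opposite strand, beginning 16 bases before the start and overlapping no other motif searched. The Tek stretch held 0 matches. Of 32851 promoters of the same length, 21.6% held the RBPJ letters, 3.17% the forkhead, 10.8% the ETS and 9.99% the GATA letters. A match is a description of letters and not of binding. The levels of the receptor genes, given above, were lower in each DNMAML and Notch1f/f library than in each WT library for Tek and overlapped for Tie1. That contrast between the genes was not tested, and neither was any part of these letters in it.

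Ptprb, the phosphatase of Tek, was the gene whose log2 level followed Tek most closely over the 9 libraries among 15690 genes with a mean of at least 1 CPM, at a Pearson r of 0.98. The next were Gm9910 at 0.97, Mmp28 at 0.96, Scube1 at 0.96 and Supt20 at 0.96. These values describe libraries that share genotypes and depths, and they were ranked on the same data. Tie1 had an r of 0.42 with Tek and ranked 3472. Ptprb had 4668, 5880 and 4759 CPM in WT and, for DNMAML, 2658, 3706 and 3975 CPM, while Notch1f/f samples gave 3896, 2204 and 3280 CPM. As for Tek, the 6 DNMAML and Notch1f/f libraries were all below WT, as in 3.01% of all genes. The log2 difference of Ptprb from WT was -0.57 in DNMAML (SE 0.22) and -0.71 in Notch1f/f (SE 0.22). Neither passed, with adjusted p of 0.698 and 0.160 in the edgeR test. In DNMAML against WT, fitted to these 6 libraries with the replicate number as a block, Ptprb fell by 0.58 on the log2 scale (SE 0.12, adjusted p = 0.0393), and Tek had a difference of -0.42 (SE 0.11, adjusted p = 0.0903), both in edgeR's test. The same 6 libraries without the block gave adjusted p = 0.346 for Ptprb and 0.471 for Tek in edgeR, and the block in all 9 libraries gave 0.746 and 0.884, so Ptprb passed only in the fit with both choices. In the 6 libraries 310 genes passed with the block and 78 without it, and in all 9 libraries 4 and 1. In Notch1f/f against WT, DESeq2 gave Ptprb an adjusted p = 0.0301 at a log2 difference of -0.71.

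**Figure D2:**
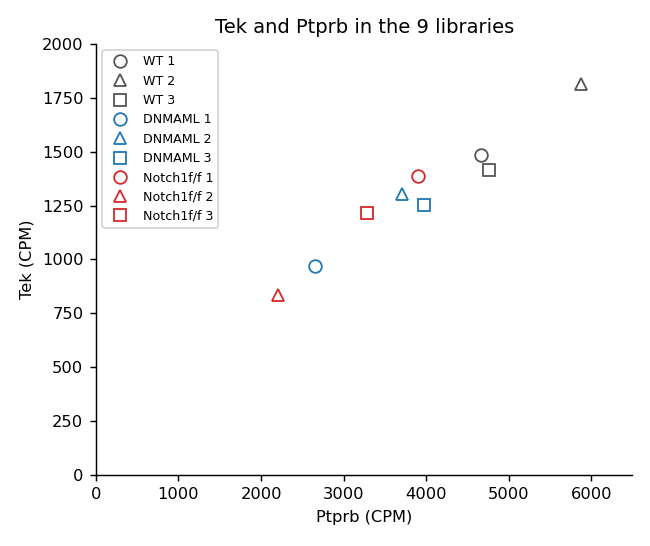
Level of Tek (vertical axis, CPM) against Ptprb (horizontal axis, CPM), both linear and from 0, with 1 point per library, coloured by genotype and shaped by replicate number. The 3 WT libraries had the highest values of both genes and Notch1f/f replicate 2 the lowest.

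Angpt1 (ENSMUSG00000022309, chromosome 15, 42288119 to 42540373, minus strand, GRCm39), the activating ligand, stood at 59.6, 23.7 and 27.2 CPM in WT. In DNMAML its levels were 70.3, 7.59 and 29.9 CPM, spanning the whole range of WT and beyond it on both sides. Notch1f/f libraries had 12.0, 4.87 and 17.5 CPM, each below each WT library. As given above, 9.33% of genes had Notch1f/f libraries below all WT libraries. The log2 difference of Angpt1 in Notch1f/f was -1.69 against WT (SE 0.85, 95% interval -3.71 to 0.33) and -1.65 against DNMAML (SE 0.85, 95% interval -3.67 to 0.37). These did not pass in the edgeR test, with adjusted p of 0.469 and 0.891, and in Notch1f/f against DNMAML 0.0205% of genes passed and 6.37% had an unadjusted p below 0.05. DNMAML against WT gave -0.04 for Angpt1 (SE 0.82, 95% interval -1.99 to 1.92, adjusted p = 0.999 in the edgeR test). An interval of this width leaves both a large rise and a large fall possible. Without WT replicate 1 that difference was 0.50, and without DNMAML replicate 1 it was -0.97.

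Markers of other cells moved in part with Angpt1. The 12 fibroblast markers, such as Col1a1 and Pdgfra, summed to 2501, 678 and 1196 CPM in WT and, for DNMAML, 2687, 552 and 1558 CPM, while Notch1f/f samples gave 276, 297 and 973 CPM. Within WT and within DNMAML the libraries had the same order for Angpt1 and for this sum, and in Notch1f/f replicate 3 was highest for both. Of the 12 fibroblast markers 10 were lower in Notch1f/f than in WT, with a median log2 difference of -0.81 beside 0.02 for all genes tested, and in edgeR 0 passed, while 4 had an unadjusted p below 0.05 and DESeq2 called 2, Inmt and Tcf21, beside 13.4% and 5.48% of all genes. Among the fibroblast markers Lum was at 0 in Notch1f/f replicate 2, and no other was at 0 in any library. Among the pericyte and smooth muscle markers Cnn1 was at 0 in WT replicates 2 and 3. The 18 pericyte and smooth muscle markers summed to 1613 to 2065 CPM in WT, 1513 to 1907 in DNMAML and 1024 to 1388 in Notch1f/f. Mcam, which is on this list, alone had 603 to 753 CPM in WT, 619 to 918 in DNMAML and 753 to 1083 in Notch1f/f. Its mean was higher in Notch1f/f than in WT, so the sum does not show how far the lower markers fell. In Notch1f/f against WT 12 of these 18 were lower and 6 higher, and the median log2 difference was -1.13. Of the lower ones 5 passed in edgeR, beside 0.323% of all genes. An unadjusted p below 0.05 was found for 13 of the 18, and DESeq2 called 11, beside 13.4% and 5.48% of all genes. The 10 platelet and megakaryocyte markers ranged from 102 to 486 CPM in WT, 59.9 to 1172 in DNMAML and 30.5 to 396 in Notch1f/f, with Gp1bb under 10 counts in all libraries together. Their sum also had the order of Angpt1 within WT and within DNMAML. In Notch1f/f replicate 2 was lowest for Angpt1 and for the platelet sum, while the fibroblast sum was lowest in replicate 1. The part of these cells in the Angpt1 values was not tested. The genes closest to Angpt1 over the 9 libraries were Prkca, a protein kinase C, at a Pearson r of 0.99, Crispld2 at 0.99, Faim2 at 0.99, Bnc2 at 0.98 and Pcolce2 at 0.98.

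**Figure D3:**
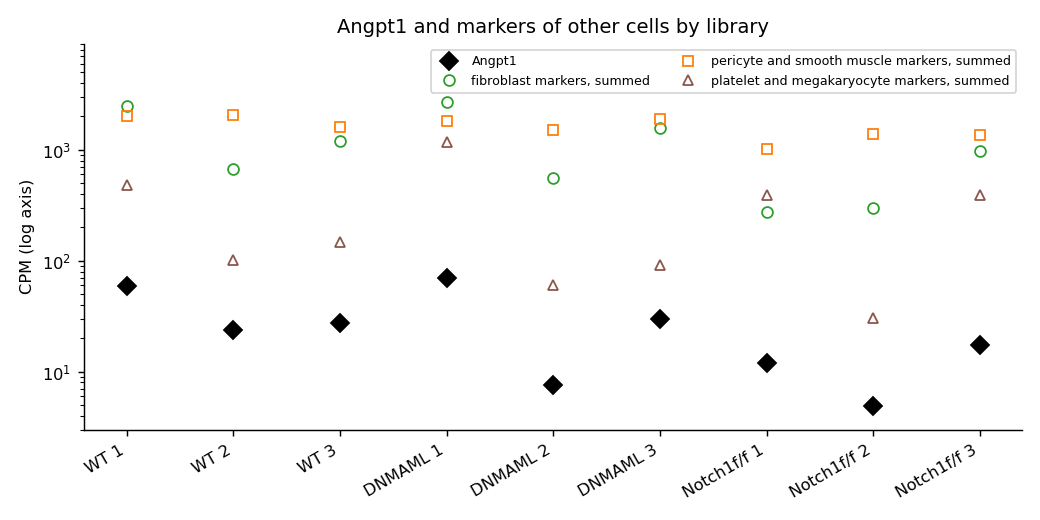
Angpt1 (black diamonds) and the summed levels of fibroblast, pericyte and smooth muscle, and platelet and megakaryocyte markers in each of the 9 libraries, in CPM on a log axis. A large part of the pericyte and smooth muscle sum is Mcam. Angpt1 was highest in DNMAML replicate 1, at 70.3 CPM, where the fibroblast sum was also highest at 2687 CPM, and lowest in Notch1f/f replicate 2 at 4.87 CPM.

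Angpt2 (ENSMUSG00000031465, chromosome 8, 18740279 to 18791578, minus strand, GRCm39), the ligand made by endothelium, stood at 67.8, 61.2 and 40.1 CPM in WT. In DNMAML its levels were 43.2, 21.4 and 54.6 CPM, and the Notch1f/f samples gave 28.6, 47.8 and 41.8 CPM. The genotypes overlapped, with WT replicate 3 among the other libraries. The log2 difference from WT was -0.50 in DNMAML (SE 0.34, 95% interval -1.27 to 0.26) and -0.52 in Notch1f/f (SE 0.34, 95% interval -1.28 to 0.25). Neither passed in the edgeR test, with adjusted p of 0.999 and 0.598. Notch1f/f and DNMAML differed by -0.01 (SE 0.34, 95% interval -0.78 to 0.75, adjusted p = 0.999 in the edgeR test). Angpt2 lies within the span of Mcph1, a gene on the opposite strand with which it shares 0 exon bases. Counting had no option for strand, so reads from Mcph1 introns over Angpt2 exons cannot be told apart from Angpt2 reads. Mcph1 had 8.09 CPM on average in WT, 10.7 in DNMAML and 15.2 in Notch1f/f. Angpt1 shares 737 exon bases with Gm17473 on the opposite strand, a gene with at most 0.882 CPM in any library, and the receptor genes overlap no other gene. The genes closest to Angpt2 over the 9 libraries were Eapp at a Pearson r of 0.95, Zfp729b at 0.95, 2200002D01Rik at 0.94, Pias1 at 0.94 and Rab36 at 0.94. For Tie1 they were AC113540.1 at 0.95, Zmym3 at 0.92, Marc2 at 0.91, Fmnl3 at 0.91 and Grp at 0.91.

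The balance of the ligands varied with Angpt1 more than with Angpt2. Angpt2 per Angpt1, both per length, was 1.61, 3.64 and 2.08 in WT and, for DNMAML, 0.866, 3.97 and 2.58, while Notch1f/f samples gave 3.36, 13.8 and 3.37. Notch1f/f replicate 2 stood far above the rest, and the other Notch1f/f libraries lay within the range of WT. The remaining ligand gene of the family, Angpt4, had 0 to 12 counts per library and was not tested.

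**Figure D4:**
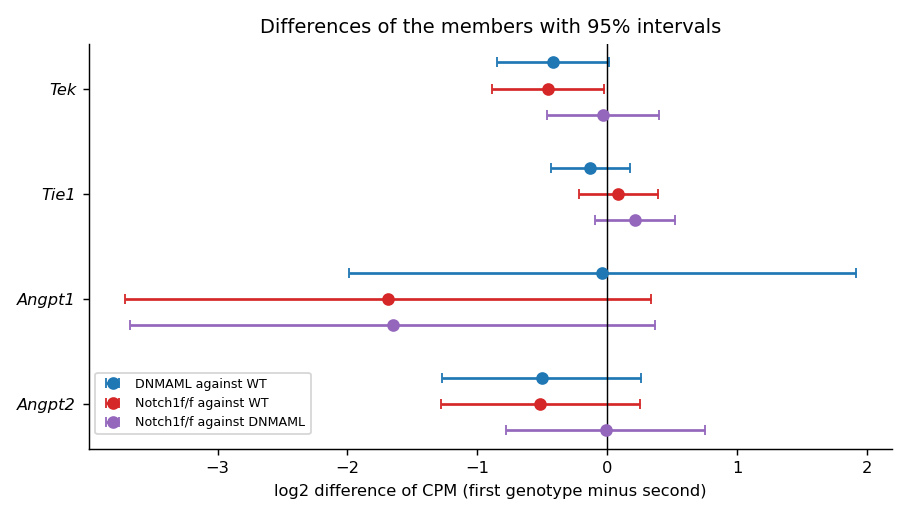
Differences in level of the 4 members on the log2 scale (horizontal axis, first genotype minus second) for the 3 comparisons, from edgeR's quasi-likelihood fit to 9 libraries. Points are the fitted differences and bars their 95% intervals, narrowest for Tie1 and widest for Angpt1. Among these 12 intervals, that of Tek in Notch1f/f against WT was the only 1 that lay wholly on a single side of 0.

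Other genes of the pathway were followed by role. Among 12 partners of the receptors 11 were tested and 0 passed in any comparison in edgeR, where 1, 4 and 1 had an unadjusted p below 0.05 in DNMAML against WT, Notch1f/f against WT and Notch1f/f against DNMAML, beside 5.97%, 13.4% and 6.37% of all genes. DESeq2 called Ptprb and Mmp14 in Notch1f/f against WT, beside 5.48% of all genes. Tie1 and Cdh5 are themselves on this list. Svep1, a matrix protein that binds Tie1, had 98.5, 43.7 and 41.5 CPM in WT and, for DNMAML, 83.6, 17.9 and 56.2 CPM, while Notch1f/f samples gave 11.8, 7.79 and 28.2 CPM. Its log2 difference in Notch1f/f against WT was -1.95 (SE 0.73, adjusted p = 0.306 in the edgeR test), with its lowest values in the libraries poor in fibroblast markers. The part of those cells in the Svep1 values was not tested.

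Among the 32 genes of signal transduction 1 passed, in Notch1f/f against WT, where 0.323% of all genes passed with a lower and 0.513% with a higher level. Grb14, an adaptor that binds activated receptor kinases including Tek, had 59.3, 63.1 and 60.9 CPM in WT and, for DNMAML, 44.1, 33.0 and 48.7 CPM, while Notch1f/f samples gave 23.1, 17.6 and 29.7 CPM. The 3 genotypes did not overlap in Grb14, with DNMAML between the others. All 6 DNMAML and Notch1f/f libraries were below WT in 3.01% of all genes, and the share with all 3 genotypes apart was not computed. It fell by 1.38 on the log2 scale in Notch1f/f against WT (SE 0.20, adjusted p = 0.0157 in the edgeR test), and this call was lost without WT replicate 1 (adjusted p = 0.0661) or WT replicate 2 (adjusted p = 0.0625). In DNMAML its log2 difference from WT was -0.54 (SE 0.20, adjusted p = 0.626 in the edgeR test). Foxo1, the transcription factor that AKT inactivates downstream of Tek, had 106, 103 and 88.9 CPM in WT, with 78.0, 114 and 105 CPM for DNMAML and 127, 134 and 116 CPM for Notch1f/f. Its log2 differences from WT were -0.01 (SE 0.15) in DNMAML and 0.34 (SE 0.15) in Notch1f/f. Nos3, the endothelial nitric oxide synthase, had 42.8, 46.3 and 49.8 CPM in WT, with 35.2, 66.5 and 42.2 CPM for DNMAML and 57.8, 77.9 and 84.8 CPM for Notch1f/f. Its log2 differences from WT were 0.05 (SE 0.22) and 0.67 (SE 0.22) in the same order. Neither gene passed (adjusted p of 0.188 to 0.999 in the edgeR test), although all 3 Notch1f/f libraries were above all 3 WT libraries for both, which held for 8.5% of all genes. Dok2, an adaptor of Tek, was near the detection limit at 0 to 1.41 CPM. The median log2 difference of the 32 genes was -0.0042 in DNMAML and -0.16 in Notch1f/f against WT, beside 0.0090 and 0.02 for all genes tested. An unadjusted p below 0.05 was found for 3 of the 32 in DNMAML and 9 in Notch1f/f, beside 5.97% and 13.4% of all genes. DESeq2 called 2 of the 32, Grb14 and Src, in Notch1f/f against WT, beside 5.48% of all genes.

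Of 20 genes known as FOXO targets, Angpt2 among them, 19 were tested. In both comparisons with WT 13 of these were lower, with medians of -0.15 in DNMAML and -0.18 in Notch1f/f. In edgeR 0 passed, and 2 and 3 of the 19 had an unadjusted p below 0.05, near the 5.97% and 13.4% of all genes. DESeq2 called 1 of the 19, Txnip in Notch1f/f, beside 5.48% of all genes. Of 12 factors that act on Angpt2, 11 were tested, with median log2 differences from WT of 0.08 in DNMAML and 0.21 in Notch1f/f. In edgeR 0 passed, and 1 and 5 of the 11 had an unadjusted p below 0.05, beside the same shares of all genes. DESeq2 called 3, Epas1, Gata2 and Hif1a, in Notch1f/f against WT, beside 5.48% of all genes. Of the 11 factors 8 were higher and 3 lower in that comparison. Hif1a was higher, at 83.9, 160 and 99.6 CPM in Notch1f/f beside 68.8, 67.7 and 74.5 CPM in WT, while Gata2 and Epas1 were lower. Epas1, a hypoxia-inducible factor abundant in lung endothelium, had 8323, 8323 and 7325 CPM in WT and, for DNMAML, 6201, 6433 and 6801 CPM, while Notch1f/f samples gave 6213, 3819 and 6295 CPM, so it was below WT in all 6, as were 3.01% of all genes. Its log2 difference was -0.30 (SE 0.19, adjusted p = 0.999 in the edgeR test) in DNMAML and -0.55 (SE 0.19, adjusted p = 0.209) in Notch1f/f.

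Of 18 genes of the Weibel-Palade body, where Angpt2 is stored, 17 were tested and 1 passed. Plat, which encodes tissue plasminogen activator, had 48.7, 38.2 and 41.1 CPM in WT and, for DNMAML, 48.7, 67.6 and 41.8 CPM, while Notch1f/f samples gave 77.4, 131 and 114 CPM. It rose by 1.34 on the log2 scale in Notch1f/f against WT (SE 0.22, adjusted p = 0.0207 in the edgeR test). The call was lost without any single WT library or without Notch1f/f replicate 2, with adjusted p of 0.0743 to 0.0948 and log2 differences of 1.17 to 1.45. Angpt2 thus had values in the direction opposite to Plat. The median log2 difference of the 17 genes was -0.19 in DNMAML and -0.26 in Notch1f/f, with 11 of 17 lower in each. Vwf, the main content of these bodies, had 1550, 1844 and 1883 CPM in WT and, for DNMAML, 881, 668 and 1044 CPM, while Notch1f/f samples gave 891, 999.5 and 1364 CPM. Vwf is on the venous list as well, and all 6 values were below WT, as in 3.01% of all genes. Its log2 difference from WT was -1.03 in DNMAML (SE 0.20) and -0.70 in Notch1f/f (SE 0.20), with adjusted p of 0.146 and 0.123 in the edgeR test. Rab27a, a GTPase that tethers the bodies, had 71.1, 75.2 and 63.5 CPM in WT and, for DNMAML, 38.2, 44.7 and 46.2 CPM, while Notch1f/f samples gave 39.0, 47.4 and 54.5 CPM, all 6 below WT as well. Its log2 differences of -0.70 in DNMAML and -0.58 in Notch1f/f (SE 0.15 each) had adjusted p of 0.170 and 0.0968 in the edgeR test. DESeq2 called both genes in both comparisons. An unadjusted p below 0.05 was found for 3 of the 17 in DNMAML and 7 in Notch1f/f, beside 5.97% and 13.4% of all genes. DESeq2 called 3 and 5 of the 17, beside 1.09% and 5.48%. The DNMAML calls were Myrip, Rab27a and Vwf, all lower. In Notch1f/f the calls went both ways, with Mlph, Rab27a and Vwf lower and Plat and Igfbp7 higher. Each Notch1f/f library had more Igfbp7 than any WT library, with 432 to 876 CPM where WT spanned 376 to 401.

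**Figure D5:**
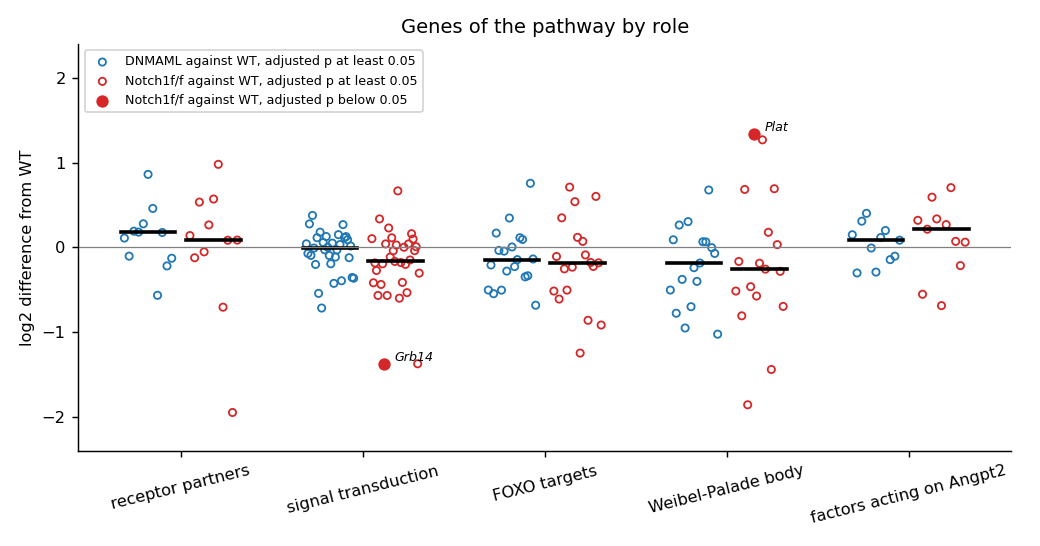
Difference from WT on the log2 scale (vertical axis) of each tested gene in 5 groups of the pathway, in DNMAML (blue) and Notch1f/f (red). Open points did not pass, filled points passed at an adjusted p below 0.05, and black lines are medians. Grb14, at -1.38, and Plat, at 1.34, were the genes that passed, both in Notch1f/f.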

How the data were processed

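The authors deposited whole-number read counts per gene as a single table of 9 libraries, made with featureCounts 2.0.1 and the Ensembl 107 annotation of GRCm39, per the file headers. Neither strand nor read pairing was set in that command, so both reads of a pair can enter as counts. STAR 2.7 is named in the submitters' processing notes, which give mm10 where the header has GRCm39. Ribosomal RNA was depleted and libraries were made in one batch, per the labels' protocols. Gene length is also a deposited column, not a measurement. Symbols came from a GRCm38 annotation, in which 52073 of 56748 identifiers were found. Promoter sequences came from RefSeq, where 2 of the 4 members had an entry.

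Genes were filtered by filterByExpr, scaled by TMM and tested with edgeR 4.0.16 in R 4.3.3, in a robust quasi-likelihood fit by genotype alone over the 9 libraries, with p-values adjusted over all 19486 genes. The SE is the absolute log2 difference divided by the square root of F, so it restates the test, as does its 95% interval. DESeq2 1.42.0 and other settings were tried as alternatives.

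Same-numbered WT and DNMAML libraries deviated together from their group means (correlation 0.179 to 0.344, against -0.27 to 0.0774 for differently numbered ones). Same-numbered Notch1f/f libraries gave -0.13 to 0.212 with the others and were not taken as pairs. Differently numbered libraries reached 0.352 for WT with Notch1f/f and 0.306 for DNMAML with Notch1f/f, so values of this size do not establish pairs. The labels do not say whether equal numbers are pairs. The main fit left the number out, and it was used as a block only among the alternatives.

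Named genes were the members, list genes past the threshold, Ptprb, Foxo1, Dok2 and Nos3, overlapping genes, and the 5 genes closest to each member by Pearson correlation of log2(CPM + 0.5). Svep1, Vwf, Rab27a, Epas1 and the other list genes that only DESeq2 called were named after their values were seen. The members, gene lists and rules were chosen with earlier results of these data known. Counts were simulated for 19486 genes, with 100 changes of each size placed in genes drawn at random. For DNMAML against WT, Notch1f/f against WT and Notch1f/f against DNMAML, 28%, 24% and 13% of 2-fold changes were recovered. Of 4-fold changes 43%, 43% and 46% were recovered, in the same order. Most 2-fold changes in such genes thus did not pass. These shares pool genes of all levels and do not describe single members such as Tek and Tie1.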

Additional observations from a re-analysis of the deposited data

How the results depend on the processing

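Of 192 recomputed differences of the members, 177 kept their direction and their side of the threshold. The fit with no filter on low counts put Angpt1 past the threshold in Notch1f/f, at -1.68 against WT (adjusted p = 5.06e-11) and -1.65 against DNMAML (adjusted p = 2.39e-10) in edgeR's test, with almost unchanged differences, and the cause was not tested. With a filter on low counts the adjusted p of Angpt1 ran from 0.113 to 0.83 against WT. Angpt2 in Notch1f/f against DNMAML, near 0, changed sign at 0.0079 with at least 1 CPM in 3 libraries, and at 0.015 and 0.043 with the replicate block in 9 and in 6 libraries. Nos3 in DNMAML against WT was -0.0017 with the replicate block in 6 libraries. The replicate block moved no member across the threshold. In the 6 libraries compared, but not in all 9, it moved Ptprb past it in DNMAML against WT, and in Notch1f/f against WT it took Plat below it (log2 difference 1.31, adjusted p = 0.0536, in 6 libraries), where the numbers were not taken as pairs. Leaving out 1 library at a time gave ranges that cross 0 for Angpt1 (-0.97 to 0.50), Svep1 (-0.72 to 0.30), Nos3 (-0.25 to 0.23) and Foxo1 (-0.11 to 0.14) in DNMAML against WT, for Tie1 (-0.0071 to 0.17) in Notch1f/f against WT, and for Tek (-0.20 to 0.15), Angpt2 (-0.32 to 0.30) and Ptprb (-0.34 to 0.064) in Notch1f/f against DNMAML. Tek against WT ran from -0.49 to -0.30 in DNMAML and from -0.62 to -0.26 in Notch1f/f. Levels per length moved by less than the spread when library totals were not scaled.

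Counts of genes past the threshold depended on the setting. For DNMAML against WT, Notch1f/f against WT and Notch1f/f against DNMAML, DESeq2 called 213, 1067 and 172 and the fit without a filter 460, 1415 and 696, against 1, 163 and 4. With the replicate block in all 9 libraries the first and second were 4 and 279, and in the 6 libraries compared 310, 92 and 8. In those 6 libraries without a block the first was 78 and the third 1. Without a single library the counts ran from 0 to 94, from 13 to 530 and from 2 to 31. Counts of Angpt1 were as low as 110 in a library, which limits its precision less than the spread between libraries does.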
